A study of Homo sapiens with 2 samples.

Results

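The genes described here are 56 genes of cell adhesion: integrins, laminins, components of the hemidesmosome, matrix and matricellular proteins, the hyaluronan receptor CD44, focal adhesion adaptors and kinases, and cell-cell adhesion genes. A gene was counted when its symbol stood as an exact symbol in the feature annotation of a peak. By this rule 9 of the 56 genes had a peak, and their peaks were 12 of the 1900 in the table. The table came from CAL27, an established human tongue carcinoma cell line, in which KLF7 with a myc tag was expressed from a lentivirus. Both libraries were made from these cells after fixation with 1% formaldehyde: 1 ChIP library precipitated with the anti-MYC antibody D3N8F, and 1 input library with no antibody. Neither was replicated, so no difference could be tested. No library from cells without the tagged protein was used here, so that binding of myc-KLF7 and other DNA recovered by this antibody cannot be told apart. The comparison asks where KLF7, a zinc finger transcription factor of the Krüppel-like family, sat in the genome, and ITGA2 was the gene that the study followed up. Sites are given in GRCh38. A peak table holds no RNA level, so the identity of the cells could not be checked against marker genes.

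Integrins are receptors of an alpha and a beta chain that hold cells to the extracellular matrix. ITGA2 pairs with ITGB1 as a receptor for collagen, ITGA3 pairs with ITGB1 as a receptor for laminins, and ITGA6 pairs with ITGB1 or with ITGB4. In stratified epithelium the ITGA6-ITGB4 receptor sits in hemidesmosomes, which anchor basal cells to laminin in the basement membrane, and plectin (PLEC) ties it to keratin filaments inside the cell. Krüppel-like factors bind GC-rich sequence, and a common form of it is the GC box.

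The sequences below run from 100 bp before to 100 bp after the summit of each peak, on the plus strand of GRCh38. The first 4 are promoter peaks that held the GC box word GGGCGG on either strand, which is shown in capitals, and they are printed so that the number and place of these words can be read against the values that follow.
ITGA2: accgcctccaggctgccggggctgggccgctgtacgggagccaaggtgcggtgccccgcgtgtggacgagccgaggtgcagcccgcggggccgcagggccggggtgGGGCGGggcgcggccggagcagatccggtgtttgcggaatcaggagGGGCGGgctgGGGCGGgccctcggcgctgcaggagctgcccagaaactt
ITGA6: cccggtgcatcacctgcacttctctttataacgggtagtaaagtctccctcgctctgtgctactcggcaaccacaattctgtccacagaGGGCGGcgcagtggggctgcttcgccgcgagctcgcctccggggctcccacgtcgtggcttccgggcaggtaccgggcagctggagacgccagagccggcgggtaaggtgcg
SRC: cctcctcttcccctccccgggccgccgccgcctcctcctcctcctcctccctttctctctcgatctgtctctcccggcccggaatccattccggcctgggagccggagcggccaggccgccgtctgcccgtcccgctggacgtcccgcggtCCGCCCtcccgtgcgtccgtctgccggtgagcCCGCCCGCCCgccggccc
JUP: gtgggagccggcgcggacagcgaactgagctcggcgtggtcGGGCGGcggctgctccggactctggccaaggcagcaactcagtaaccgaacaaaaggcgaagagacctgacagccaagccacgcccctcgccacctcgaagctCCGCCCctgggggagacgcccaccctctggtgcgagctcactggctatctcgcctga
They lay at chr5:52989127-52989327 (ITGA2), chr2:172427280-172427480 (ITGA6), chr20:37346053-37346253 (SRC) and chr17:41786631-41786831 (JUP). The peak in an ITGB4 intron, at chr17:75723411-75723611, is shown because it had the larger pileup of the pair at that gene and held no GGGCGG.
ITGB4 intron: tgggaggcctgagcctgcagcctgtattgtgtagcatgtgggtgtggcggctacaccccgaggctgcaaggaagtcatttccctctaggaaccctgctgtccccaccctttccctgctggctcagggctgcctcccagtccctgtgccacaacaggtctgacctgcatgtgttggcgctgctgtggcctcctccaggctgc
The CYR61 peak, at chr1:85580446-85580646, is shown because it stood apart from the other member peaks in its values. Its capitals mark the longest run of CA units.
CYR61: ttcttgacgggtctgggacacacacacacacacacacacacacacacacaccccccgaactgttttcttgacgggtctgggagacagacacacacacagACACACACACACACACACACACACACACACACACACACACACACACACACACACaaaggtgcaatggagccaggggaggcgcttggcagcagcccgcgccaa

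Peaks were found at the integrin genes ITGA2, ITGA3, ITGA6 and ITGB4, and at PLEC, CYR61, CD44, SRC and JUP. Of the 56 genes, 9 had any peak entry (16.1%, 95% Wilson interval 8.69 to 27.8%), where 6.38% of the 20007 protein-coding genes of GENCODE v44 had one. A promoter entry was present for 6 genes (10.7%, 5.004 to 21.5%), where the share of all protein-coding genes was 2.15%. The members were chosen with results of these data known, so these shares describe the list and were not tested. Longer genes had slightly more entries, from 5.03% of the protein-coding genes up to 20000 bp to 7.56% of those from 50000 to 100000 bp. Of the 10, 12, 17 and 17 members up to 20000 bp, from there to 50000 bp, to 100000 bp and longer, 1, 3, 4 and 1 had an entry.

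By role, 3 of 12 alpha chains had an entry (ITGA2, ITGA3 and ITGA6), as did 1 of 8 beta chains (ITGB4). None of the 7 laminin chains had one. PLEC was the single gene of 4 among the other hemidesmosome components. CYR61 was 1 of 8 matrix and matricellular genes, SRC 1 of 11 focal adhesion adaptors and kinases, and JUP 1 of 5 cell-cell adhesion genes. CD44 stood alone in its group. Promoter entries belonged to ITGA2, ITGA6, ITGB4, CYR61, SRC and JUP.

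**Figure D1:**
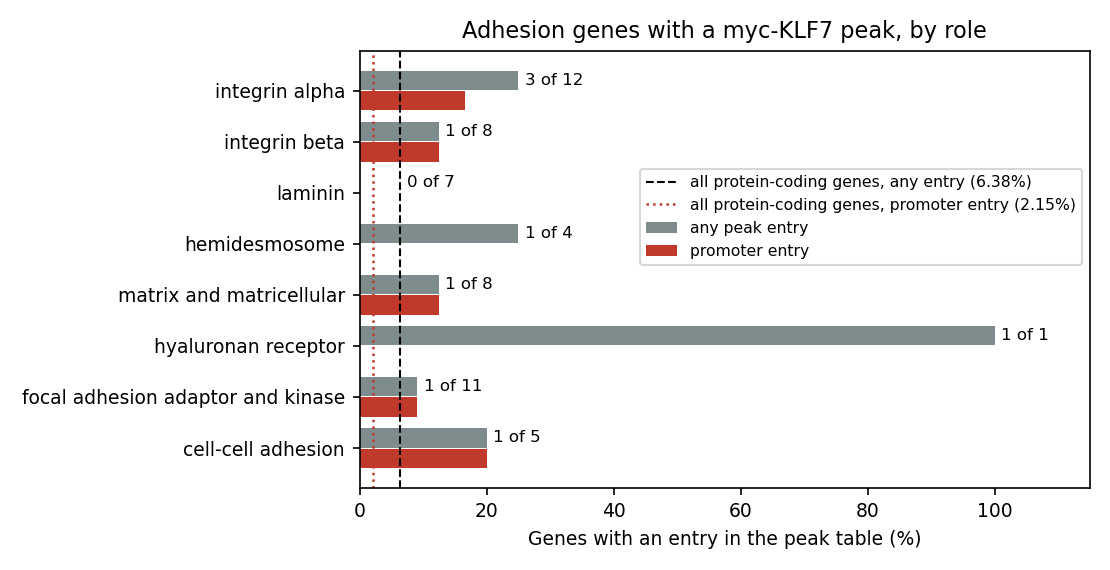
Horizontal bars give the percentage of genes in each role with any peak entry (grey, with counts) and with a promoter entry (red), and the vertical lines give the shares over all protein-coding genes, 6.38% for any entry and 2.15% for promoter entries. Laminins had 0 of 7, and the bar of CD44 rests on a single gene.

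Among the integrin alpha chains, ITGA6 had the strongest peak. Its peak, chr2:172427211-172427578, had a pileup of 13 fragments over the summit (exact 95% Poisson interval 6.92 to 22.2) against a local background rate of 1.44 fragments. The fold enrichment, which the peak caller computes as the pileup plus 1 over the background plus 1, was 5.75, with a -log10 q of 5.21. The summit lay 26 bp downstream of the ITGA6 gene start and a GC box began 11 bp before it.

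ITGA2, the collagen-binding chain, had a lower value at chr5:52989158-52989370. Its pileup was 9 fragments (4.12 to 17.1) and its fold enrichment 4.49, with a -log10 q of 2.47. The intervals of the ITGA2 and ITGA6 pileups overlapped widely. The ITGA2 summit lay 113 bp upstream of the GENCODE v44 gene start, in a peak of 74.2% GC with 3 GC boxes within 100 bp, all on the plus strand and all to the right of the summit. The peak also carried an intron entry of AC025180.1.

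The peak of ITGA3, a laminin receptor chain, was in the first intron of the canonical transcript, 6825 bp downstream of the gene start, at chr17:50062646-50062835. It had 10 fragments (4.80 to 18.4) and a fold enrichment of 4.28. It held no GC box within 100 bp of the summit. The nearest annotated start of an ITGA3 transcript lay 745 bp farther downstream.

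The beta chain ITGB4 carried 2 peaks. The promoter peak, chr17:75721279-75721486, had its summit 1 bp from the gene start, with 12 fragments (6.20 to 21.0) and a fold enrichment of 5.93. The intron peak, chr17:75723358-75723631, lay 2183 bp downstream of the gene start in intron 1 of the canonical transcript, with 20 fragments (12.2 to 30.9) and a fold enrichment of 6.57. The background rate was 2.20 at the intron peak and 1.19 at the promoter peak, so the difference between the pileups was larger than that between the folds. The promoter peak had a GC content of 78.4%, the highest of the 12 peaks, and 3 GC boxes within 100 bp of the summit. The intron peak had 61.3% GC and none.

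No other integrin gene had an entry. ITGB1, the partner of ITGA2 and ITGA3, had its nearest summit 7129410 bp upstream of its start, and for ITGAV the distance was 3465184 bp. The nearest summit to ITGA1, the other collagen-binding chain on chromosome 5, was that of ITGA2, 201311 bp downstream of the ITGA1 start. ITGA4, ITGA5, ITGA7, ITGA8, ITGA9, ITGA10, ITGA11, ITGB2, ITGB3, ITGB5, ITGB6, ITGB7 and ITGB8 also had none.

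Around ITGB4 on chromosome 17, 5 peaks lay over 56122 bp, and ITGB4 holds the last 2 of them. The first was at chr17:75667196-75667403, annotated to the RECQL5 promoter and to a SAP30BP exon. RECQL5 encodes a DNA helicase. The neighbouring genes start 62 bp apart on opposite strands, and the summit lay 200 bp upstream of the RECQL5 start and 138 bp inside SAP30BP. Its pileup was 9 fragments and its fold enrichment 4.70. The next lay at chr17:75683505-75683738 in intron 3 of SAP30BP, with 11 fragments and a fold enrichment of 5.26. This peak also carried an exon entry of AC087749.1. The one after it was at chr17:75700468-75700732 in intron 5 of SAP30BP, with 10 fragments and a fold enrichment of 4.88. For both SAP30BP intron peaks the deposited annotation gave AC087749.1 as nearest gene. Gaps between neighbouring summits ranged from 2182 to 20660 bp, and the SAP30BP end and the ITGB4 start are 13266 bp apart. These 5 peaks lay in a dense run, taken as at least 5 peaks with neighbouring summits within 100000 bp. Such runs were not particular to this locus: there were 30 of them, and 1562 of the 1900 peaks lay outside them. The ITGB4 intron peak had the highest pileup, fold and -log10 q (9.02) of the 5, but its pileup interval overlapped those of the other 4. Every 31-base word under these 5 peaks occurred at a single place in GRCh38. GC content was 40.6% in the peak of SAP30BP intron 3 and 59.6 to 78.4% in the other 4.

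**Figure D2:**
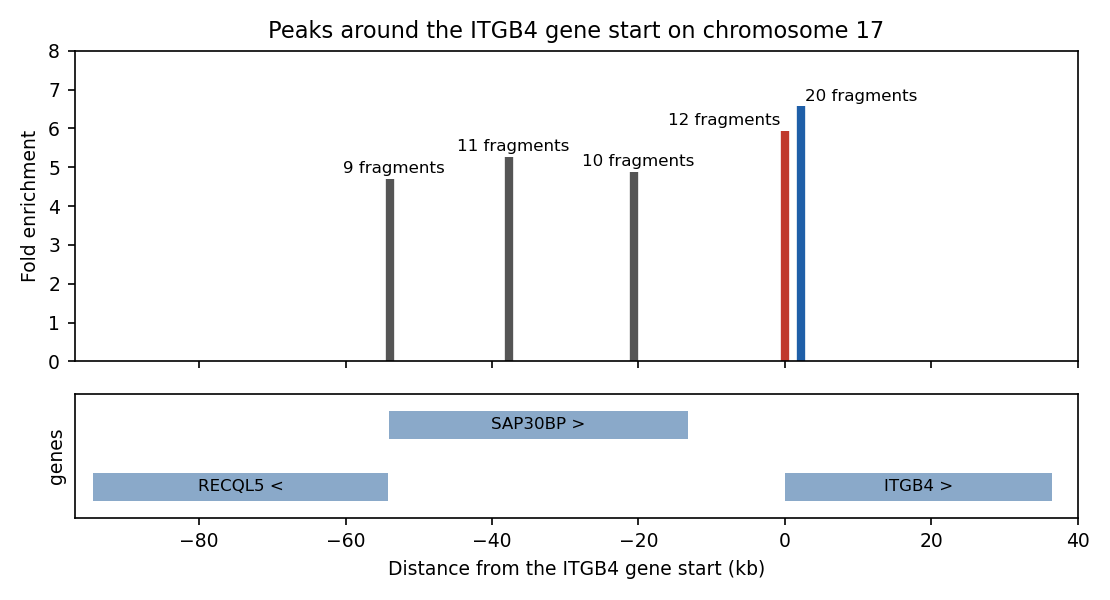
Bars show the fold enrichment (vertical axis) of the 5 peaks at their distance in kb from the ITGB4 gene start (horizontal axis), with the pileup above each, and the lower track shows the genes with their direction. Grey bars are the peaks at RECQL5 and SAP30BP (4.70 to 5.26), red is the ITGB4 promoter peak (5.93) and blue the ITGB4 intron peak (6.57).

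Of the hemidesmosome components beyond ITGA6 and ITGB4, PLEC had 3 peaks, all with intron entries. PLEC encodes plectin, the linker between the ITGA6-ITGB4 receptor and keratin filaments, and it has 14 distinct starts among 15 transcripts in GENCODE v44. Its peaks were at chr8:143949735-143950140, chr8:143948680-143948874 and chr8:143938960-143939198, that is 26802, 28048 and 37656 bp downstream of the outermost start. Pileups were 9, 10 and 12 fragments and fold enrichments 4.80, 4.63 and 5.60. Measured from the nearest PLEC transcript start, the first lay 944 bp downstream, the next 2139 bp upstream and the last 519 bp downstream. The first and the next summit were 1246 bp apart. None of the 3 had PLEC as nearest gene in the deposited annotation, which gave MIR661, a microRNA gene within the locus.

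COL17A1 (collagen XVII), DST (dystonin) and CD151 (a tetraspanin that binds laminin receptors) had no entry. For CD151 the nearest summit was 23300 bp upstream of the start, at the promoters of RPLP2 and PIDD1. For COL17A1 it was 36161 bp upstream, at the promoter of SFR1. The laminin chains LAMA1, LAMA3, LAMA5, LAMB1, LAMB2, LAMB3 and LAMC1 had nearest summits from 129110 bp (LAMA5) to 2330751 bp (LAMB3) from their starts.

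CYR61 (also named CCN1), a secreted matricellular protein that binds integrins, had the highest pileup and fold enrichment of the 12 peaks. The peak at chr1:85580463-85580863 had 116 fragments (95.9 to 139.1) against a background of 1.57 and a fold enrichment of 45.5. The other 11 ranged from 9 to 26 fragments and from 3.71 to 6.57. The summit lay 215 bp upstream of the gene start. The peak also carried a promoter entry of AC092807.2. A CA run of 54 bp began 1 bp before the summit, and a run of 34 bp began 83 bp before it. Within 100 bp of the summit, no other member peak had a CA or TG run longer than 6 bp, and 3 of 1854 peaks on the assembled chromosomes had a run of at least 54 bp. Of the 371 31-base words in the CYR61 peak, 64 (17.3%) occurred at more than 1 place in GRCh38, and 1 of them at 184628 places. In the other 11 member peaks no word was repeated. The part of the repeat in the CYR61 pileup was not tested. The related gene CTGF had no entry, its nearest summit being 561401 bp upstream of its start. COL1A1, COL4A1, COL4A2, FN1, THBS1 and TNC had none either. COL1A1, the type I collagen chain, had a summit 23181 bp downstream of its start, in an intron of HILS1.

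**Figure D3:**
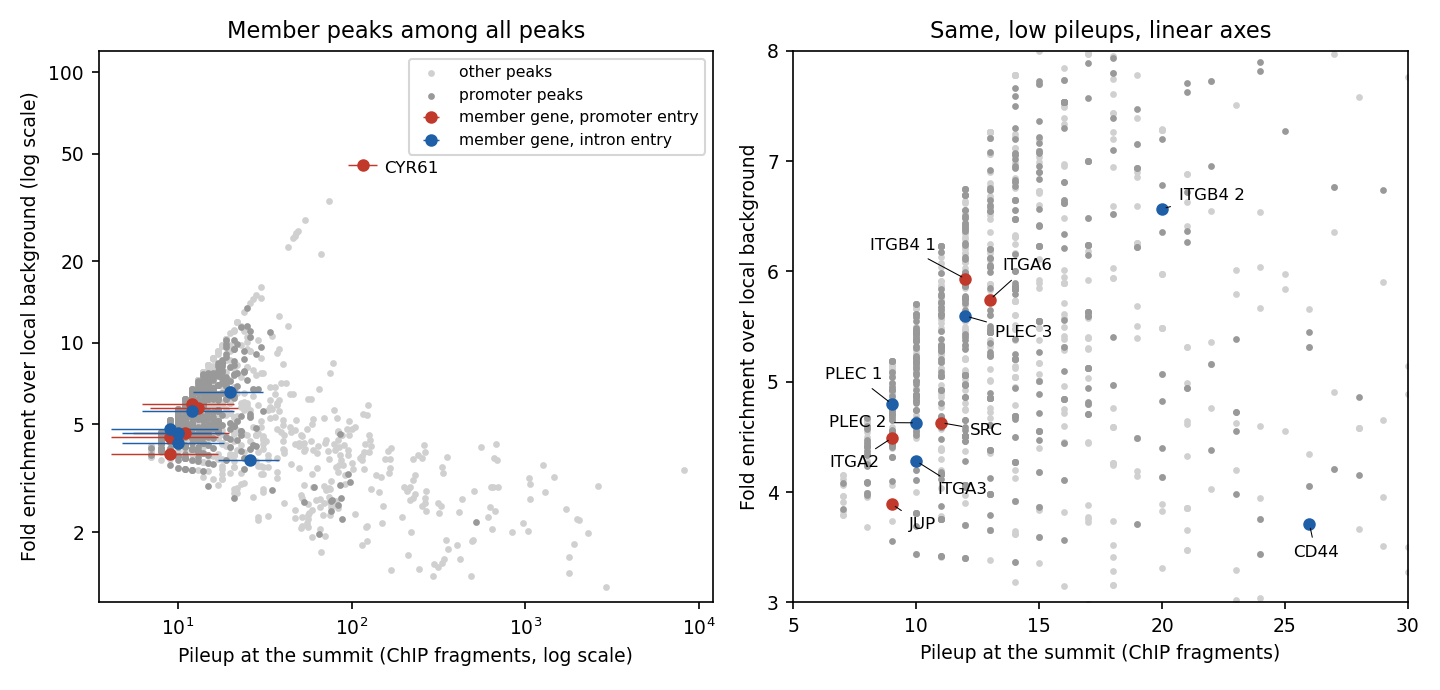
Each point is a peak, with its pileup in fragments on the horizontal and its fold enrichment on the vertical axis, on log scales for all 1900 peaks (left) and on linear scales for low pileups (right), and bars on the left are exact 95% Poisson intervals. Red marks member peaks with a promoter entry and blue those with an intron entry; CYR61 stands at 116 fragments and 45.5, while the other 11 lie between 9 and 26 fragments.

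CD44, the receptor for hyaluronan, had a peak at chr11:35139574-35139781 in its first intron, 786 bp downstream of the gene start. Its pileup of 26 fragments (16.98 to 38.1) was the highest after CYR61, but the background rate was 6.28, the highest of the 12, and its fold enrichment of 3.71 was the lowest. Here pileup and fold place the same peak at opposite ends of the member peaks. The peak also had a promoter entry of AL356215.1.

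SRC, the tyrosine kinase that signals at focal adhesions, had a peak at chr20:37346040-37346253 with 11 fragments (5.49 to 19.7) and a fold enrichment of 4.63. The summit lay 1468 bp downstream of the outermost gene start but 13 bp downstream of another SRC transcript start, in exon 1 of the canonical transcript, within its 5' UTR. It held 3 GC boxes within 100 bp, 2 of them overlapping. TLN1, VCL, PXN, ZYX, ILK, PARVA, FERMT1, FERMT2, PTK2 and BCAR1 had no entry, and PXN had the closest summit of these, 70983 bp downstream.

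JUP, plakoglobin, which joins desmosomal and classical cadherins to the cytoskeleton, had the weakest peak by q-value. It lay at chr17:41786665-41786957, with 9 fragments (4.12 to 17.1), a fold enrichment of 3.89 and a q-value of 0.0193. The summit was 200 bp inside the outermost gene start and 19 bp upstream of another JUP transcript start, between 2 GC boxes. CDH1, CDH3, DSG3 and DSP had no entry.

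In the 6 promoter peaks the summit lay 1 to 215 bp from a transcript start of the gene, with a median distance of 22.5 bp. Over the 571 promoter peaks on assembled chromosomes the median distance to a transcript start of any gene was 88 bp. The 6 peaks with intron entries lay 362 to 2139 bp from the nearest start of their gene. The starts for ITGA2, ITGA6, ITGB4 and CYR61 were the gene starts themselves, whereas for SRC and JUP they were internal starts.

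**Figure D4:**
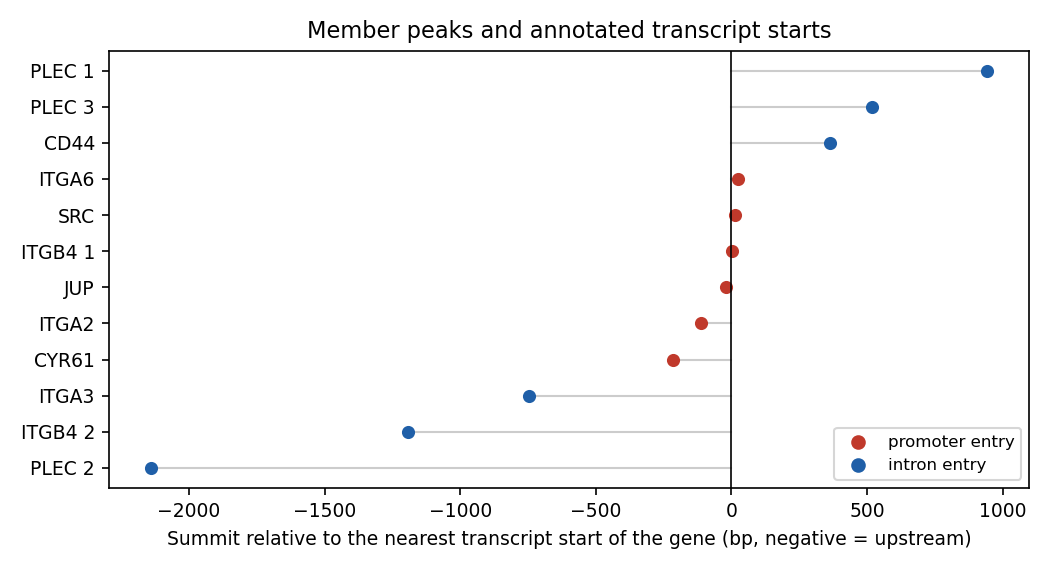
Points give the distance in bp from the nearest annotated transcript start of the gene to the summit (horizontal axis, upstream negative) for the 12 member peaks (rows), red for promoter and blue for intron entries. The promoter peaks lie between -215 and 26 bp and the intron peaks between -2139 and 944 bp.

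Apart from CYR61, most member peaks lay below the middle of the table in strength. Over all 12 member peaks the median pileup was 11.5 fragments and the median fold enrichment 4.71. Without CYR61 these medians were 11 fragments and 4.63, compared with 13 fragments and 5.06 over all 1900 peaks. For the 5 promoter peaks other than CYR61 the median fold was 4.63, compared with 5.20 over the 576 promoter peaks. Ranked by q-value, CYR61 was at 15 of 1900, and the ITGB4 intron peak at 387. ITGA6 was at 874.5, the ITGB4 promoter peak at 882.5 and CD44 at 902, ties sharing their mean rank. The other 7 peaks were in the lower part of the list, with PLEC from 1012 to 1581.5, SRC at 1524, ITGA2 at 1683.5, ITGA3 at 1725 and JUP at 1850. A pileup of 9 or fewer was found in 3 of the 12 peaks (ITGA2, JUP and 1 of PLEC) and in 209 of all 1900 peaks.

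GGGCGG lay within 100 bp of the summit, on either strand, in 5 of the 6 promoter peaks, that of CYR61 being the exception. It lay there in 1 of the 6 intron peaks, at PLEC. Searched over the whole peak, CYR61 held 2 of these words and the CD44 intron peak held 1. For comparison, the word was present in 68.1% of all 571 promoter peaks, in 33.0% of the other 1283 peaks, and in 39.8% of 35116 RefSeq promoters over the same length, from 151 bases before to 50 after the start. The longer word GGGGCGGGG, which contains GGGCGG, was present in the ITGA2 window alone, at chr5:52989232-52989240. Its share was 22.2% in promoter peaks and 13.2% in RefSeq promoters.

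The E-box CACGTG was absent from all 12 windows, while 26.8% of promoter peaks, 16.1% of the other peaks and 5.52% of RefSeq promoters held it. Searched over the whole peak, ITGA6 held 1 CACGTG, at an offset of -145 bp from its summit. The degenerate E-box CANNTG, of which CACGTG is a form, lay in the windows of 2 of the 6 promoter peaks and of all 6 intron peaks. At ITGA3 the 2 matches lay past the end of the called peak. The shares were 57.6% in windows of promoter peaks, 70.8% in those of the other peaks and 55.2% in RefSeq promoters. The AP-1 word TGANTCA lay in the window of the ITGB4 promoter peak and in that of 1 intron peak of PLEC. At PLEC it lay before the start of the called peak. Its share was 6.30% in windows of promoter peaks and 12.1% in those of the other peaks. With 12 windows these shares are descriptions, and a match is not a site of binding. GC content ranged from 60.6 to 78.4% over the 12 peaks, with a median of 66.7%, compared with 68.6% over promoter peaks and 56.0% over the others.

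**Figure D5:**
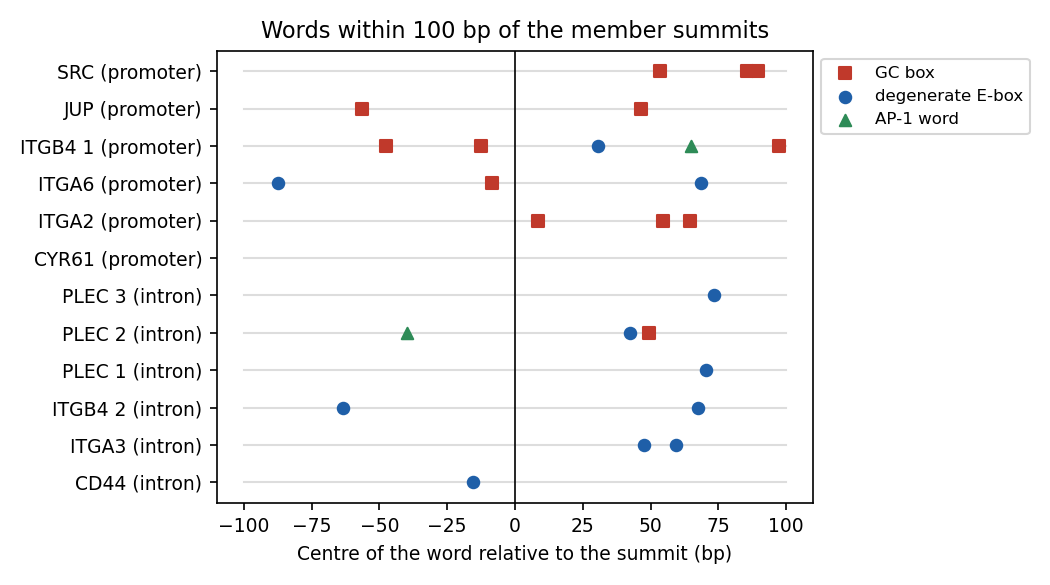
Rows are the 12 member peaks and the horizontal axis is the distance in bp from the summit on the plus strand of the genome; red squares are GC boxes, blue circles degenerate E-boxes and green triangles AP-1 words. GC boxes are seen in 5 of 6 promoter rows and in 1 intron row, and the CYR61 row is empty.

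A wider list of 98 other adhesion genes held 4 with any entry (4.08%, 95% Wilson interval 1.60 to 10.0%) and 1 with a promoter entry (1.02%), where the shares over all protein-coding genes were 6.38% and 2.15%. Of these, 3 were plakophilins, which link desmosomal cadherins to keratin, from the 13 further desmosome and plakin genes. PKP2 had a promoter peak at chr12:32896984-32897229, with 11 fragments and a fold enrichment of 5.46. PKP4 had an intron peak with 12 fragments and 5.76, which was also a promoter entry of CCDC148, and PKP3 an intron peak with 10 fragments and 4.88. GIT1, a focal adhesion scaffold, had an exon entry with 11 fragments and 5.32, and a CACGTG 10 bp before the summit. Within 100 bp of their summits, PKP2 held 1 GGGCGG, and PKP3 held 2 GGGCGG, 1 GGGGCGGGG and 2 TGANTCA. PKP4 held none of these words there. There was no entry among the 6 further integrins, the 14 further laminin and basement membrane genes, the 8 collagens and collagen receptors, the 15 further cell-cell junction genes and the 10 further matricellular genes. Over both lists together, 13 of 154 genes (8.44%) had an entry and 7 (4.55%) a promoter entry.

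Of the 47 members without an entry, none had a summit within 10000 bp of its start and 3 had one within 50000 bp, with a median distance of 488119 bp. The table lists peaks past a q-value of 0.05 only, so a lower signal at these genes was not detectable from it.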

How the data were processed

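The data were 1 ChIP and 1 input library from CAL27 cells expressing myc-KLF7. According to the methods, the authors trimmed reads with Trimmomatic, mapped them with BWA, removed duplicates with Samtools and called peaks with MACS2 at a q-value of 0.05. Per the labels the build was hg38. In the deposited table, pileup is a signal that counts the fragments of the ChIP library at a summit. As deposited, fold enrichment is a ratio with 1 added to pileup and to local background. The authors' -log10 q came from MACS2 and compares these 2 libraries. The table gives no read totals.

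From it, symbols were matched exactly in the feature entries, and background rates were recovered from pileup and fold. Gene starts in the table were shifted by 1. Of 1381 gene identifiers, 1369 were on the same chromosome and 881 had the same start in GENCODE v44. Table symbols were matched to protein-coding genes by name, identifier or unambiguous synonym, with 1547 of 1706 symbols matched. Words were searched in GRCh38 on both strands, and 31-base words were counted with alternate contigs left out. The word search was tested on simulated data. RefSeq promoters were from GRCh38.p14, in which 39 of the 56 members matched. Intervals are 95% Wilson or exact Poisson intervals and cover counting error only. Every member with an entry is named with its values, members without one by symbol, and all genes of the wider list with an entry. The sequence of a promoter peak is not reported here. The members and lists were chosen with earlier results of these data known. Alternatives were stricter q-values (0.01 and 0.001), folds and pileups, other ways of assigning genes, other ranks, starts, windows and words. Sequence was read with pysam 0.24.0, words were counted with numba 0.67.0, intervals came from scipy 1.17.1 and statsmodels 0.14.6, and plots from matplotlib 3.10.9, in Python 3.11.15.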

Additional observations from a re-analysis of the deposited data

How the results depend on the processing

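Each of 6 results was recomputed under its alternatives, giving 20 values. Of these, 14 were within 1.5 times the reported value and 6 were not. With a fold enrichment of at least 5, 4 members were left (CYR61, ITGA6, ITGB4 and PLEC) in place of 9. This cut kept 5 of the 12 member peaks and 997 of all 1900 peaks. The median fold of the member peaks was 7.82 with nothing added to the rates, against 4.71. Their median rank by q-value was 246 among promoter peaks, counting entries of any gene, for the 7 that carried such an entry, against 1268 of all 1900 for the 12. For the 9 member peaks with a deposited start, the median distance to it was 215 bp and 113 bp from the nearest transcript start, an alternative chosen after seeing the data. GGGGCGGGG was present in 2 member peaks, ITGA2 and ITGA6, when the whole peak was searched, against 1 within 100 bp of the summit. Within 100 bp of the summit, GGGCGG was present in 6. CD44, ITGA2, ITGA3, JUP and SRC, the members lost at the fold cut, had folds of 3.71 to 4.63. The median fold over all 1900 peaks was 5.06. ITGA2 was lost at a q-value under 0.001, which left 6 members, and at a pileup of at least 10, which left 7. The q-value cut kept 7 of the 12 member peaks and 1552 of all 1900 peaks. The pileup cut kept 9 member peaks and 1691 of all peaks. No paired analysis was possible because each group held 1 library and no result came from a test. With 9 to 26 fragments in all member peaks but that of CYR61, the order of their strengths is not resolved by these counts.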

Other observations

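The deposited annotation also assigns nearest genes to KEGG maps, which were read after the member peaks had been described. Of the 416 peaks with any map, 19 (4.57%) had a nearest gene on the focal adhesion map, representing 16 genes, of which 5 are members. The shares were 3.37% for the adherens junction, 3.13% for the tight junction and 1.92% for the ECM-receptor map, and no share over all genes was computed. The other 11 genes were nearest to 13 peaks, of which 3 had a promoter entry of the gene and 4 no entry of it (COMP, RAC2 and both of ROCK1). The ROCK1 peaks lay 554972 and 799309 bp from its start. DIAPH1, an actin nucleator, had the peak with the highest fold enrichment of these, 10.3, at chr5:141619008-141619448, with 21 fragments. MET, the receptor for hepatocyte growth factor, had a promoter peak with 17 fragments and a fold of 5.63, and an intron peak with 13 fragments and 5.75. RAC1, a small GTPase of cell spreading, had a promoter peak with 20 fragments and 5.07. EGFR, the receptor for epidermal growth factor, had an intron peak at chr7:55073931-55074316, whose midpoint lay 55103 bp downstream of the start, with 38 fragments and a fold of 9.48. The DIAPH1 and EGFR peaks had a higher fold than every member peak but that of CYR61. These are values of single peaks without replicates.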
